A study of Mus musculus with 6 samples.

Results

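Cycling Kupffer cells were taken here as 886 barcodes of the 71908 in the series, and they were chosen by marker counts. Barcodes needed 300 or more detected genes, and mitochondrial UMIs had to stay under 25%, which left 66935. A unique molecular identifier (UMI) marks 1 captured mRNA molecule. A kept barcode counted as Kupffer when it held at least 3 of Clec4f, Vsig4, Cd5l, Timd4, C6, Cd163 and Fcna (13593 barcodes), and when Kdr, Clec4g, Ptprb and Dnase1l3, genes of liver endothelium, together made under 0.2% of its UMIs (9277 barcodes). It counted as cycling when Mki67, Top2a, Ube2c, Cenpf and Birc5 together gave at least 3 UMIs. The other 8391 Kupffer barcodes, with under 3 UMIs of those 5 genes, served for comparison. Since these 16 genes selected the barcodes, their levels between the cycling and other barcodes are a description and not a result.

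The libraries were single-cell suspensions of whole mouse liver, digested with collagenase, lysed for red cells and depleted of dead cells, and read on the BD Rhapsody system. There were 2 control libraries (genotype label ctrl), 2 pre-metastatic and 2 macro-metastatic libraries (both from an orthotopic mouse model of colorectal cancer). In the cell line field, every library carries CT26-GFP (a colon tumour line of the mouse, marked with a fluorescent protein), also the controls. The labels give no strain, sex, age or time after implantation, and do not say whether the 2 libraries of a group came from separate mice, so p-values measure the spread between these libraries only.

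Kupffer cells are the resident macrophages of the liver sinusoid. They take up blood-borne particles, ageing red cells and microbial products, and they maintain themselves largely by local division, with CSF1 receptor signalling and the factor Maf among the known regulators of that capacity. A cell that divides first raises the genes that copy its DNA, many of them E2F targets, and then the cyclins, kinases and spindle proteins of mitosis, many of which are controlled through CHR and CCAAT promoter elements.

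The starts of 5 genes that stood high in the cycling barcodes show these elements, 3 of the mitotic group and 2 of the DNA replication group. The 5 are not all that were searched, and the starts of Pttg1, Tk1 and Birc5 hold none of these elements. Those of the mitotic genes Cks2 and Ccnb1 hold no CHR, and that of Rrm2 holds none of the E2F words listed below. For each gene only the first listed start was searched. The windows are RefSeq sequences of GRCm38.p6, from 250 bases before to 50 bases after the annotated start, written 5′ to 3′ on the strand of the gene. Capitals mark CHR (TTTGAA), the CCAAT box (CCAAT) and E2F words (TTTCCCGC, TTTGGCGC, TTTCGCGC and TTTGCCGC) on either strand, and where marked words overlap or touch they form 1 run of capitals. Ccnb2 (ENSMUSG00000032218), cyclin B2, lies at chr9:70421505-70421804, minus strand. Cdc20 (ENSMUSG00000006398), an activator of the anaphase-promoting complex, lies at chr4:118437294-118437593, minus strand. Cdk1 (ENSMUSG00000019942), the mitotic kinase, lies at chr10:69352863-69353162, minus strand. Mcm5 (ENSMUSG00000005410), a subunit of the replicative helicase, lies at chr8:75109259-75109558, plus strand. Pclaf (ENSMUSG00000040204), a partner of the sliding clamp PCNA, lies at chr9:65890073-65890372, plus strand.
Ccnb2: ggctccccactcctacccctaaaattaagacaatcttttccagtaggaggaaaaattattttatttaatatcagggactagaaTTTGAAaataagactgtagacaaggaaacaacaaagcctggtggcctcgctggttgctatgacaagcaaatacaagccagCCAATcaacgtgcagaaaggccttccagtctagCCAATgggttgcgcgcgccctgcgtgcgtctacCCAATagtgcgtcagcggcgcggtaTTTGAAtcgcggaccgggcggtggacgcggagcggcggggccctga
Cdc20: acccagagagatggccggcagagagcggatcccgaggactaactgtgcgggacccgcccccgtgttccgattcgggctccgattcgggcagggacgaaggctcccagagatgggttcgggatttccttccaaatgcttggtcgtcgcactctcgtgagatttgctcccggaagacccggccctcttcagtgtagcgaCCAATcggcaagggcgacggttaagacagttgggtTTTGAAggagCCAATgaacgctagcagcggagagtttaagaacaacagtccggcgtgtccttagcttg
Cdk1: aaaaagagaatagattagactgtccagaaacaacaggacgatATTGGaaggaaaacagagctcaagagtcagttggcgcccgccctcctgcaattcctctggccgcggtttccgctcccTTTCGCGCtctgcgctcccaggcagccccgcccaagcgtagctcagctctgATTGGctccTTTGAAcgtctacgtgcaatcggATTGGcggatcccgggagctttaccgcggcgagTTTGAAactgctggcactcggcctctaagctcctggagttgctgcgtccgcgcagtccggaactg
Mcm5: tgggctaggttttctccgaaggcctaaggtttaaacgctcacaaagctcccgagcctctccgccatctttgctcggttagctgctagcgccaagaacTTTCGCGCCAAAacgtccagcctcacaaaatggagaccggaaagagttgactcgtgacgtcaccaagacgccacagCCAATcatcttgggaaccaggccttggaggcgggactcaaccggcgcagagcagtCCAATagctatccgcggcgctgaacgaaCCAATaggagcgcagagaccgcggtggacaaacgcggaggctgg
Pclaf: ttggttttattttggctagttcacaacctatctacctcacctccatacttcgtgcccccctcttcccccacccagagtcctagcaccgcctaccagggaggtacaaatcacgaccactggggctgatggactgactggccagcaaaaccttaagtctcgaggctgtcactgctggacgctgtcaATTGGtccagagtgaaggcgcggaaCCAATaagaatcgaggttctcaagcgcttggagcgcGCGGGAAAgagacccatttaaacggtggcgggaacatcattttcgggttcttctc
CHR was present in 11 of 19 windows of the mitosis list (57.9%), in 21 of 26 of the spindle list (80.8%) and in 3 of 29 of the replication list (10.3%), against 18.1% of 27025 windows of all genes. An E2F word was present in 10 of 29 replication windows (34.5%), in 5.26% of mitosis windows and in 2.32% of all windows. The CCAAT box was in 89.5% of mitosis, 69.2% of spindle and 55.2% of replication windows, against 37.9% of all. A match describes letters in the window and was not tested as a binding site.

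The libraries held 10590 to 14801 barcodes. UMI totals were 41914149 to 51750676 in the 4 control and pre-metastatic libraries, against 88986627 and 90819751 in the macro-metastatic libraries. Any pair of libraries shared 1.19% to 1.87% of the barcodes of the smaller library. A doublet caller marked 2.40% to 3.25% of kept barcodes. The median cycling barcode held 11294 to 13915.5 UMIs in the 4 earlier libraries, while macro-metastatic 1 had 16275 and macro-metastatic 2 had 19928. Depth thus moved with the macro-metastatic group, and its part in the counts of members was not tested beyond the thinned shares given with them.

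Not every member carried a Kupffer profile. The 7 Kupffer genes summed to a median of 1.01%, 0.797%, 1.18% and 1.12% of UMIs in the cycling barcodes of control 1, control 2, pre-metastatic 1 and pre-metastatic 2, but to 0.0724% in macro-metastatic 1 and 1.08% in macro-metastatic 2. A line at 0.5% of UMIs, set after seeing the distribution, left 420 members above it (Kupffer-rich) and 466 below (Kupffer-poor). The Kupffer-poor barcodes numbered 3 of 20, 4 of 21, 5 of 40, 9 of 27, 273 of 405 and 172 of 373 in control 1, control 2, pre-metastatic 1, pre-metastatic 2, macro-metastatic 1 and macro-metastatic 2. They were also common among the other Kupffer barcodes of the macro-metastatic libraries, at 39.5% and 26.0%, and made 7.55% to 10.1% of them elsewhere.

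**Figure D1:**
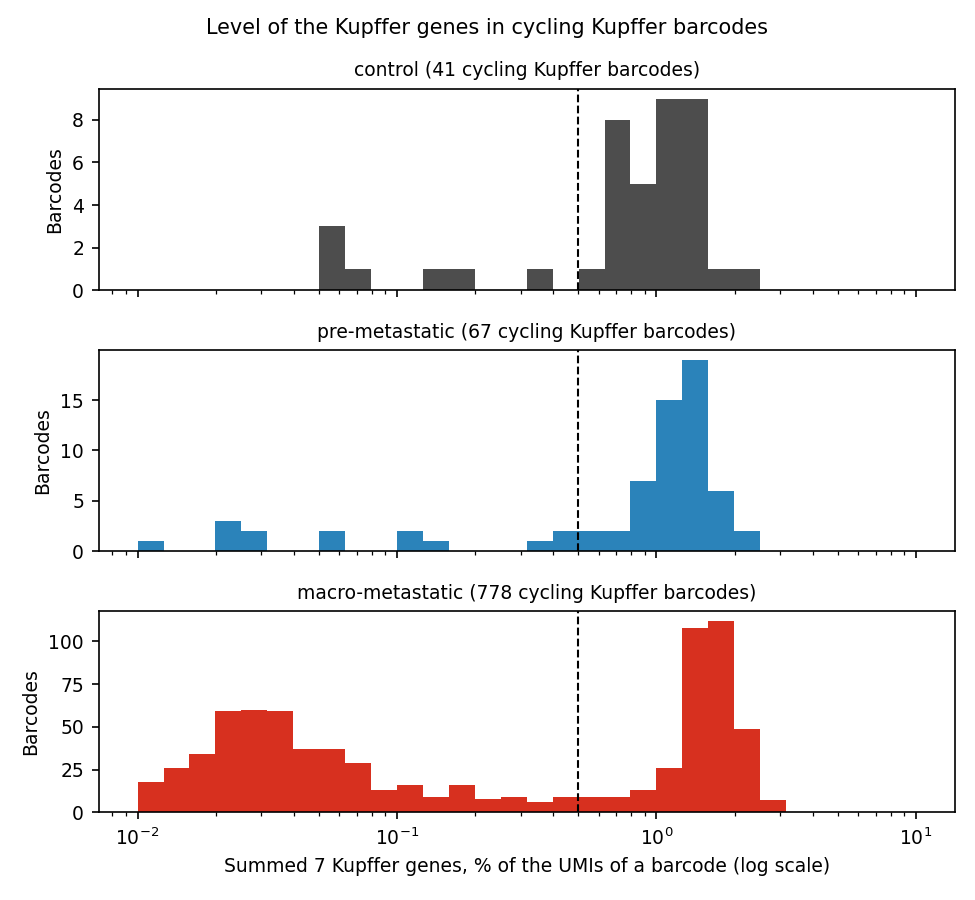
Number of cycling Kupffer barcodes (vertical axis) by the summed share of 7 Kupffer genes in their UMIs (horizontal log axis, %), for the control, pre-metastatic and macro-metastatic libraries. The dashed line stands at 0.5%. Of the 778 macro-metastatic members 445 lie left of it, against 7 of 41 control and 14 of 67 pre-metastatic members.

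The first leading genes of the Kupffer-poor members differed from library to library, while some, such as Mpo, were shared between libraries. In macro-metastatic 1 they were led by Mpo, Prtn3, Ctsg and Elane, which encode granule proteases and a peroxidase of early myeloid cells. Ms4a3, Gzma, Fn1, Ly6c2 and F13a1 came next. Mpo stood at 1780 CPM (UMI counts scaled to a common library total) in the Kupffer-poor members there. It stood at 6.42 in the Kupffer-rich members and at 21.4 in the other Kupffer-poor barcodes. In macro-metastatic 2 the Kupffer-poor members were led by Spp1, Col1a2, Ly6a, Serpinh1 and Tm4sf1. The homeobox gene Rhox5 stood at 262 CPM against 1.04 in the Kupffer-rich members, and Mpo at 339 CPM against 5.20. In pre-metastatic 1, 5 Kupffer-poor members were led by Ngp, Lcn2 and S100a8, genes of neutrophils, and Mpo stood at 1134 CPM. In control 1, 3 were led by Gzma, Gzmb, Trdc and Il17a, genes of cytotoxic and gamma delta lymphocytes. Pre-metastatic 2 had Fn1, Alox15 and Car1 first, and control 2 had Cd40lg, Cd226 and Ccr2. The Kupffer-rich members of macro-metastatic 1 carried C1qb, a complement subunit of tissue macrophages, at 2886 CPM, and the Kupffer-poor members there carried it at 540 CPM. Gene results below are given for the 420 Kupffer-rich barcodes, with the values of all 886 beside them where they differ.

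By the rule, the cycling share of Kupffer barcodes was lower in the pre-metastatic libraries and higher in the macro-metastatic libraries than in control. It was 20 of 297 (6.73%) in control 1, 21 of 299 (7.02%) in control 2, 40 of 975 (4.10%) in pre-metastatic 1, 27 of 838 (3.22%) in pre-metastatic 2, 405 of 3569 (11.3%) in macro-metastatic 1 and 373 of 3299 (11.3%) in macro-metastatic 2. The 3 groups did not overlap. The group means were 6.88% ± 0.205, 3.66% ± 0.623 and 11.3% ± 0.0292 (SD, n = 2), so the pre-metastatic share was 0.532 times and the macro-metastatic share 1.65 times the control share. A trend over the 3 stages was not resolved: the slope was 0.36 log2 units per stage, with an exact two-sided permutation p of 0.378 over all 90 assignments of the 6 libraries. On the log2 scale these ratios were -0.91 and 0.72, beside a pooled SD between libraries of 0.144. With 2 libraries a group no pairwise exact test can reach a p of 0.05, and the pairwise ratios were not tested in another way.

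The size and direction of the macro-metastatic difference depended on which members were counted. Among Kupffer-rich barcodes the share was 6.30% (17 of 270) and 6.20% (17 of 274) in control, 3.98% (35 of 879) and 2.41% (18 of 747) in pre-metastatic, and 6.45% (132 of 2045) and 8.50% (201 of 2366) in macro-metastatic libraries. Both macro-metastatic libraries then lay inside the Wilson 95% intervals of control 1 (3.97% to 9.85%) and control 2 (3.91% to 9.71%). Pre-metastatic 1 (3.98%) also lay inside both intervals, at their lower end, and pre-metastatic 2 (2.41%) lay below both. With the line at 1% of UMIs the group means were 4.21% ± 0.608, 2.71% ± 0.900 and 7.39% ± 1.97 (SD, n = 2), and the macro-metastatic share was 1.75 times control, above the 1.65 by the rule. With each Kupffer-rich barcode thinned to 2000 UMIs, the share with 3 or more rule UMIs was 3.66% ± 0.211 in control, 1.32% ± 0.159 in pre-metastatic and 2.67% ± 0.605 in macro-metastatic libraries (SD, n = 2), and the macro-metastatic group was then the lower one against control. Counting Kupffer-rich barcodes with at least 10 rule UMIs gave 4.59% ± 0.212, 1.45% ± 0.53 and 3.44% ± 1.41 (SD, n = 2). The pre-metastatic mean lay under the control mean in every setting run. Intervals cover counting error only.

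**Figure D2:**
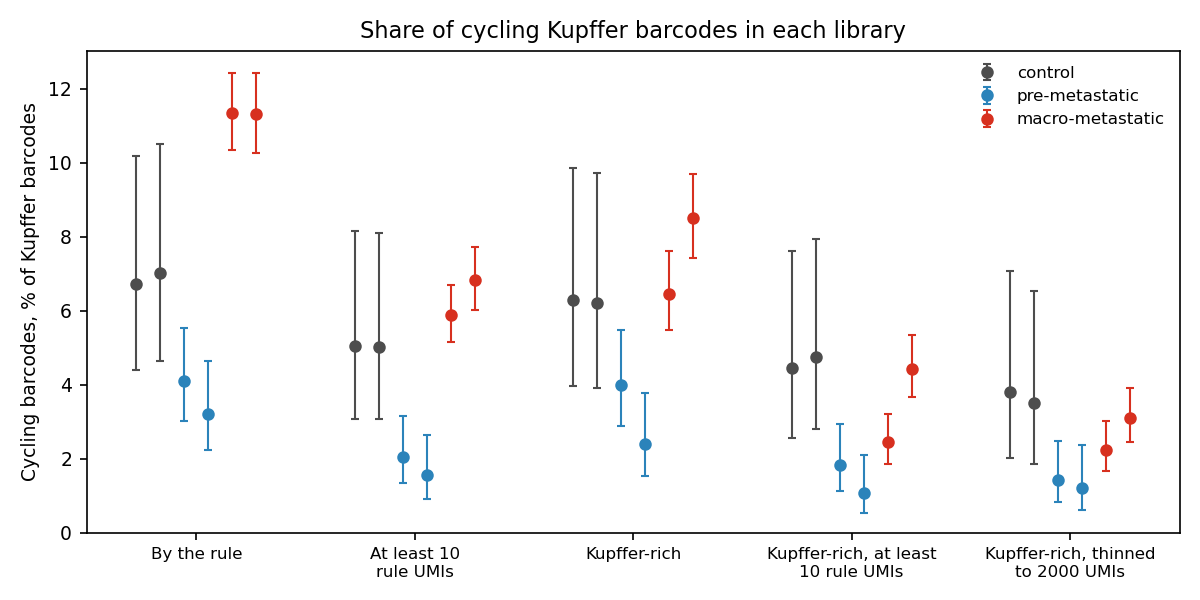
Cycling barcodes as a percent of Kupffer barcodes in each of the 6 libraries, under 5 ways of counting. Points are libraries and bars are Wilson 95% intervals. The macro-metastatic points stand above control by the rule (11.3% against 6.73% and 7.02%) and not in the thinned Kupffer-rich count, while the pre-metastatic points are the lowest of each set.

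The same rule UMIs were also found in other barcodes. In B cells (median 1365 to 2248 UMIs), 1.68% to 3.53% of barcodes had at least 3 rule UMIs, and in endothelial barcodes 0.636% to 4.24%, the highest in macro-metastatic 1. Kupffer barcodes are much deeper, so all were also thinned to 2000 UMIs, which left out shallower barcodes. In the control libraries 506 of 684 and 663 of 895 B cells were left out. In the pre-metastatic libraries it was 502 of 655 and 520 of 653, and in the macro-metastatic libraries 97 of 226 and 149 of 425. Kupffer barcodes lost a smaller part: 36 of 297, 26 of 299, 57 of 975, 104 of 838, 197 of 3569 and 336 of 3299 in the same library order. B cells then had 6.77% to 8.50% with 3 or more rule UMIs in the 4 earlier libraries, against 1.74% to 4.598% of all Kupffer barcodes. In macro-metastatic 1 and 2 they had 3.10% and 3.26%, against 5.19% and 4.86% of Kupffer barcodes. These B cell shares are of the deeper B cells only, and the part of this selection in them was not tested. Members just inside the threshold were close to those just outside. The summed mitosis list stood at 148 CPM in the 390 Kupffer barcodes with 2 rule UMIs, at 192 CPM in the 145 with 3, at 228 CPM in the 88 with 4, at 499 CPM in the 155 with 5 to 9 and at 2546 CPM in the 498 with 10 or more. Of the 41 control members 30 had 10 or more, against 33 of 67 pre-metastatic and 435 of 778 macro-metastatic members.

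Within each library, the cycling Kupffer-rich barcodes taken as a sum stood higher in division genes beyond the 5 that chose them. This does not hold for every member. In the 333 macro-metastatic members the lower quartile of mitotic gene UMIs was 0.0378%, and in the 34 control members 0.392%. The upper quartile in the 4078 other Kupffer-rich barcodes of the macro-metastatic libraries was 0.0422%. These values describe the selection and have no test. Ratios are the median over the 6 libraries of the log2 ratio of CPM + 10, cycling over other Kupffer-rich barcodes. Of 7921 genes with pooled CPM of at least 10, 15.2% were higher in 6 of 6 libraries and 9.01% lower, with a median of 0.04. Since the rule used this contrast, nothing is read from those shares. Of the replication list 32 of 35 measured genes were higher in all 6 (median 1.63), all but Ccne1, Ccne2 and Hells. Of the mitosis list 21 of 22 were (median 2.49), all but Mybl2, of the spindle list 30 of 31 (median 2.55), all but Kif22, and of the chromatin and tubulin list 16 of 16 (median 1.91).

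Pclaf had a ratio of 4.75. It stood at 404, 439, 293, 255, 219 and 316 CPM in the cycling barcodes of control 1, control 2, pre-metastatic 1, pre-metastatic 2, macro-metastatic 1 and macro-metastatic 2, and at 3.31, 1.10, 1.35, 2.60, 2.01 and 2.00 CPM in the other Kupffer-rich barcodes. Ccna2, the cyclin of S phase and early mitosis, stood at 4.16, Prc1, a crosslinker of the spindle midzone, at 3.98, and Rrm2, which makes deoxyribonucleotides, at 3.80. Cdk1 rated 3.60, Ccnb2 3.54, Mcm5 2.97 and Cdc20 2.75. In all 6 libraries each of these genes was higher in the cycling than in the other barcodes. Genes that act before DNA copying were less uniform: of 23 G1 cyclins, CDKs and inhibitors, 6 were higher in all libraries, namely Rbl1, Cdkn2c, E2f2, Cdkn1b, E2f8 and Cdk4. Cdkn2c, which encodes the CDK4 and CDK6 inhibitor p18, had a ratio of 2.98.

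**Figure D3:**
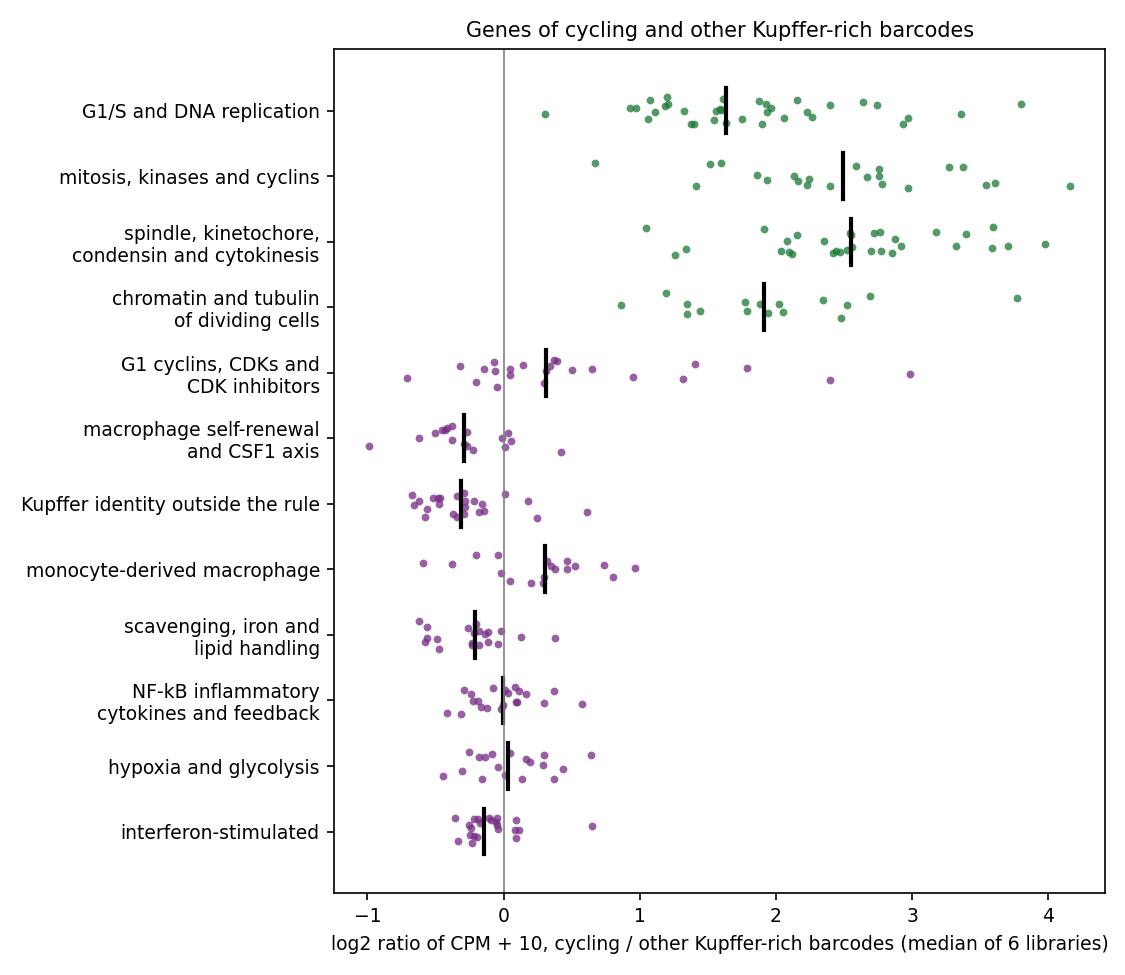
Each point is a gene, placed by its median over 6 libraries of the log2 ratio of CPM + 10 in cycling over other Kupffer-rich barcodes, and rows are gene lists with the list median as a bar. The 4 division lists lie to the right with medians of 1.63 to 2.55, and the Kupffer identity and self-renewal lists lie just left of 0.

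Within the Kupffer-rich barcodes, which were chosen for a high level of Kupffer genes, most other Kupffer identity genes stood slightly lower in the cycling state. Of 24 Kupffer identity genes outside the rule, 18 were lower in all 6 libraries (median -0.32) and 2 were higher, Marco, a scavenger receptor, and Aif1. Adgre1, which encodes F4/80, stood at 543, 650, 712, 640, 574 and 556 CPM in cycling barcodes, in the same library order, and at 1138, 972, 1074, 996, 702 and 725 CPM in the others, a ratio of -0.58. Of 17 genes of the self-renewal and CSF1 list 10 were lower in all libraries and 0 higher. Maf stood at -0.38 and Csf1r, the receptor for CSF1, at -0.42. Klf4 stood at -0.99. The 7 Kupffer rule genes had a median of -0.40. The deeper cycling barcodes (median 17717 UMIs against 12400) and the share of their UMIs taken by division genes move with these ratios, and their part was not tested.

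The next comparison asked which genes of the cycling Kupffer cells differed between stages. UMIs were summed over the Kupffer-rich cycling barcodes of each library (17, 17, 35, 18, 132 and 201 barcodes, with 179880 to 3843861 UMIs) and fitted with the edgeR quasi-likelihood test, with Benjamini-Hochberg adjustment over 5935 genes and a call at an adjusted p under 0.05. Against control, the macro-metastatic libraries had 492 genes called higher (8.29% of genes tested) and 201 called lower (3.39%). Leaving out control 1 left 230 calls in all and leaving out control 2 left 346, of 693. Over all 886 members 520 of 6860 genes were called (7.58%), but 0 without control 1, 2 without control 2, 222 without pre-metastatic 1 and 114 without pre-metastatic 2. Levels below are CPM scaled by the TMM method, in the order control 1, control 2, pre-metastatic 1, pre-metastatic 2, macro-metastatic 1 and macro-metastatic 2.

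Inflammatory cytokines and their feedback genes were higher in macro-metastatic cycling cells. Of 21 measured genes of this NF-kB list 19 were called higher and 0 lower, with a median log2 difference of 2.33 against -0.02 over all genes. Il1b, which encodes interleukin-1 beta, stood at 246, 218, 691, 1244, 3106 and 1772 CPM. Both macro-metastatic libraries lay above all others and both pre-metastatic libraries above control. The macro-metastatic difference was 3.32 ± 0.34 log2 (SE, adjusted p = 0.00011, edgeR). Cxcl2, a neutrophil-attracting chemokine, stood at 1099, 687, 1257, 1392, 7790.0 and 5072 CPM (2.77 ± 0.25, adjusted p = 3.3e-05, edgeR), and the 4 earlier libraries lay near each other. Cxcl1 rose by 3.05 and Il1a by 2.58 on the log2 scale. Nlrp3, the sensor of an inflammasome, stood at 272, 256, 554, 542, 1645 and 1419 CPM and rose by 2.46. Il10, an anti-inflammatory cytokine, rose by 2.97, and Il1rn, the interleukin-1 receptor antagonist, by 4.14.

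The same genes stood higher in the other Kupffer barcodes. The median of the list was 2.37 in the other Kupffer-rich barcodes, and a test of the change in cycling minus the change in other barcodes called 0 of its 22 genes (edgeR, median -0.07). In B cells, which share the suspension and its free RNA, the median was 2.71, but the levels were lower: Il1b stood at 486 and 176 CPM and Cxcl2 at 1219 and 369 CPM in the macro-metastatic B cells, against 3106 and 1772, and 7790.0 and 5072, in the cycling Kupffer-rich barcodes. Neutrophil genes also stood above control: 12 markers summed to 13.5, 22.2, 271, 577, 2587 and 498 CPM in the cycling Kupffer-rich barcodes. Unlike for Il1b, Cxcl2 and Nlrp3, pre-metastatic 2 stood above macro-metastatic 2. At least 3 of the 12 markers were detected in 87.9% of the members of macro-metastatic 1, in 59.7% of macro-metastatic 2 and in 0% of either control library. The neutrophil criterion used to leave out barcodes with markers of other types gave lower shares. It marked 25% of the members of macro-metastatic 1, 8.46% of macro-metastatic 2 and 0% of either control library. The part of the neutrophil genes in the NF-kB list was not tested. Without control 1 and without control 2 the list had 12 and 13 genes called higher (edgeR).

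Genes of glycolysis and the hypoxia response rose with them. Of 17 measured 9 were called higher and 0 lower, with a median of 1.27. Hilpda, which coats lipid droplets and responds to low oxygen, stood at 71.0, 135, 271, 364, 1671 and 1384 CPM (3.83 ± 0.29, adjusted p = 9e-06, edgeR). The hexokinase Hk2 stood at 37.6, 82.2, 134, 110.0, 242 and 252 CPM and rose by 2.00. The other Kupffer-rich barcodes had a list median of 1.37, and 0 of 22 genes were called in the difference between states (edgeR, median 0.06). Gapdh, a glycolytic enzyme, stood at 138, 150.0, 63.0, 102, 1036 and 1111 CPM, and in B cells it went from 119 and 108 CPM in control to 397 and 566 CPM in macro-metastatic libraries. H2-DMa, the 1 called gene of 8 in the MHC class II list, likewise went from 8.36 and 19.4 to 171 and 242 CPM, and from 19.5 and 26.6 to 225 and 219.8 CPM in B cells. These genes thus stood higher in B cells too, and what part free RNA has in them was not tested.

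**Figure D4:**
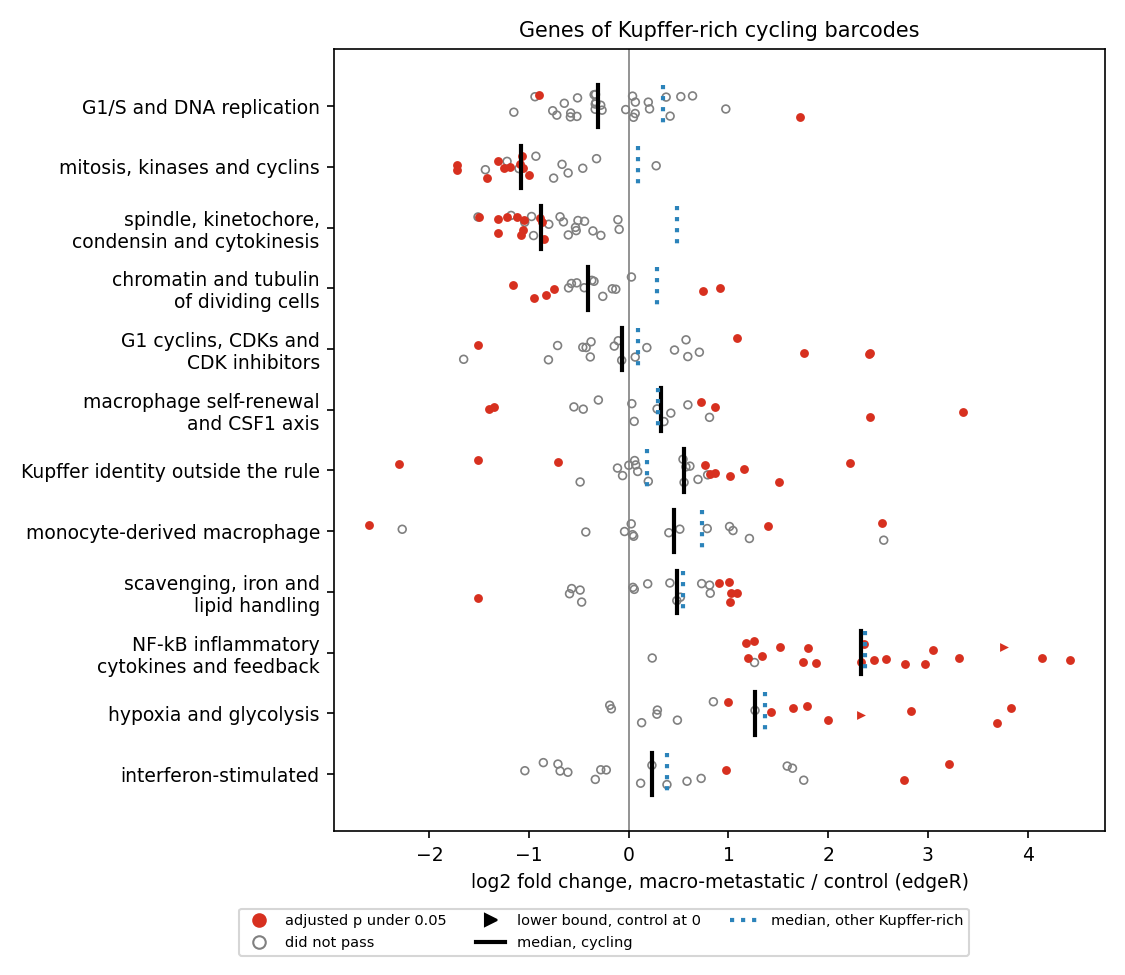
Log2 difference of macro-metastatic against control libraries for single genes (points) of 12 lists in Kupffer-rich cycling barcodes, with the list median as a solid bar and the median of other Kupffer-rich barcodes as a dotted bar. Filled points passed an adjusted p of 0.05 and triangles are lower bounds for 2 genes with 0 UMIs in both control libraries. The NF-kB list lies to the right in both states (2.33 and 2.37), while mitosis and spindle genes lie left in cycling barcodes (-1.08 and -0.88), with medians of 0.09 and 0.48 in the others.

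Mitotic genes stood lower in the macro-metastatic cycling barcodes as the rule chose them. Of 20 measured mitosis genes 10 were called lower and 0 higher (median -1.08), and of 28 spindle genes 11 were lower (median -0.88). Pttg1, or securin, stood at 305, 305, 206, 201, 141 and 100.1 CPM (-1.42 ± 0.23, adjusted p = 0.0017, edgeR), and the groups did not overlap. Cenpa, the centromeric histone, stood at 259, 285, 227, 231, 117 and 128 CPM (-1.22 ± 0.21, adjusted p = 0.0023, edgeR). Ccnb1 fell by 1.26 and Cdk1 by 1.00 on the log2 scale. Without control 1 the called counts were 2 mitosis and 2 spindle genes, and without control 2 they were 5 and 4 (edgeR). The replication list had 1 gene higher and 1 lower of 30 (median -0.31), beside 8.29% higher and 3.39% lower over all genes. Tk1, thymidine kinase, rose by 1.72, and Slbp, which binds histone mRNA, fell by 0.90.

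This result moved with the threshold on rule UMIs. Members entered by a count of 5 division genes. The median Kupffer-rich member held 19025 UMIs in the macro-metastatic and 13065 in the control libraries. The p-values of mitotic genes therefore cannot tell a stage difference from the choice of members. Of the Kupffer-rich members, 25 of 34 control, 24 of 53 pre-metastatic and 155 of 333 macro-metastatic barcodes had at least 10 rule UMIs. With members of at least 10 rule UMIs, 0 of 19 mitosis genes and 0 of 28 spindle genes were called lower (edgeR, medians -0.40 and -0.24). At 5 or more it was 2 and 1. Other calls were lost too. Of 102 listed or otherwise named genes called in the main fit, 59 stayed called at 10 or more rule UMIs. At 5 or more it was 79 of 108. At 10 or more the replication list had a median of 0.57. The NF-kB list had 14 of 19 measured genes called higher at 10 or more rule UMIs, with a median of 2.06.

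Among regulators of the cycle, Cdkn1a, the p21 inhibitor induced by stress and p53, stood at 71.0, 24.2, 53.5, 87.2, 278 and 271 CPM (2.41 ± 0.36, adjusted p = 0.0011, edgeR). Both macro-metastatic libraries were above all others. In the other Kupffer-rich barcodes it rose by 2.99. Btg1, an antiproliferative gene, rose by 1.08, Ccnd3 by 1.76 and Gadd45a by 2.40, while Cdkn2c fell by 1.52, so 4 of 21 measured genes were called higher and 1 lower. In the self-renewal list Csf1r, Id3, Bhlhe40 and Il4ra were called higher and Id1 and Myc lower, of 16. Beside the counts of both lists stand 8.29% called higher and 3.39% called lower over all genes tested. Csf1r stood at 1734, 1538, 2175, 2344, 3000.0 and 2699 CPM and rose by 0.73. Myc, a growth factor-driven transcription factor, stood at 113, 203, 193, 110.0, 69.3 and 60.4 CPM and fell by 1.35.

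Kupffer identity genes moved in both directions. Of 24 measured 7 were called higher (C1qa, C1qb, C1qc, Id3, Marco, Nr1h3 and Vcam1) and 3 lower (Cd209f, Hpgd and Slc40a1), with a median of 0.55 against 0.18 in the other Kupffer-rich barcodes. Marco stood at 83.6, 131, 321, 341, 502 and 541 CPM (2.22 ± 0.25, adjusted p = 0.00016, edgeR), with the pre-metastatic libraries between the other groups. Slc40a1, or ferroportin, the iron exporter, stood at 2874, 2308, 2647, 2120.4, 879 and 1038 CPM (-1.51 ± 0.17, adjusted p = 0.00021, edgeR), and the 4 earlier libraries all lay above both macro-metastatic ones. Cd209f, a C-type lectin, stood at 201, 203, 51.6, 87.2, 31.2 and 53.5 CPM and fell by 2.30. Its pre-metastatic difference of -1.71 did not pass (adjusted p = 0.091, edgeR). In the scavenging and lipid list 5 of 19 were called higher, among them Apoe (1.03) and Nr1h3, the LXR alpha receptor (1.02), and 1 lower, Slc40a1. Among interferon-stimulated genes Rsad2 (3.21), Oasl1 (2.76) and Ifitm3 (0.97) were called, 3 of 19. Over all genes tested 8.29% were called higher and 3.39% lower.

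**Figure D5:**
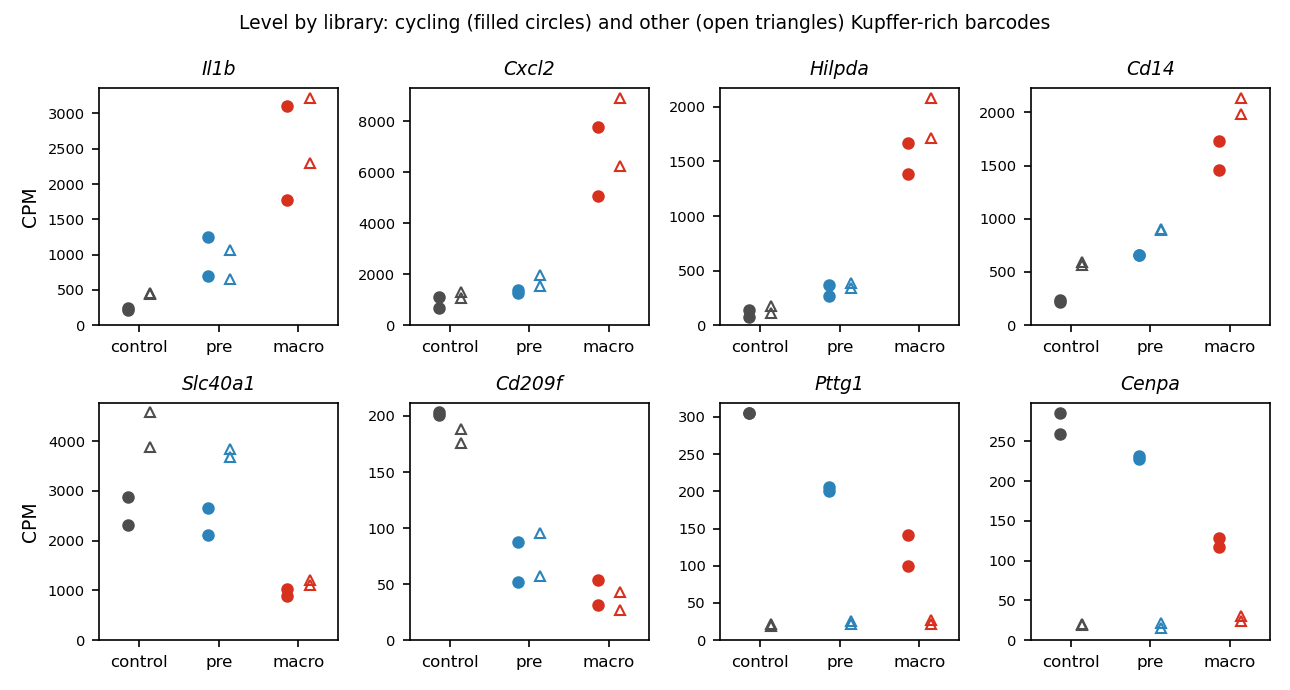
Level of 8 genes (TMM-scaled CPM, linear axis from 0) in each library, with cycling Kupffer-rich barcodes as filled circles and other Kupffer-rich barcodes as open triangles. Il1b, Cxcl2, Hilpda and Cd14 climb to the macro-metastatic libraries in both states, Slc40a1 and Cd209f fall in both, and Pttg1 and Cenpa fall in cycling barcodes and stay between 19.2 and 30.1 CPM in the others.

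The genes with the largest fitted rise had 0 UMIs in both control libraries, so their folds are only bounds. S100a9, a neutrophil alarmin, stood at 0, 0, 111, 201, 875 and 204 CPM in the cycling barcodes, but at 1544 and 594 CPM in macro-metastatic B cells, and the part of free RNA in it was not tested. Retnlg and Acod1 also stood higher in those B cells. Saa3, an acute phase protein, stood at 0 CPM in the 4 earlier libraries and at 96.8 and 82.2 CPM in macro-metastatic cycling barcodes, a log2 difference of at least 3.74 over the limit of 3 counts in both control libraries together. It stood at 15.3 and 42.0 CPM in B cells, and at 20.6 and 107 CPM in the other Kupffer-rich barcodes of control. Among genes that fell, Cx3cr1, the fractalkine receptor, fell by 2.60. Fabp4, a fatty acid carrier, went from 159 and 174 to 13.8 and 29.8 CPM, with 77.5 and 68.7 CPM in control B cells. Igfbp7 fell by 2.23, but it stood at 584 and 605 CPM in control B cells, above its level in the cycling barcodes, and the part of free RNA was not tested. The endothelial marker list summed to 1783 and 1985 CPM in control and to 839 and 994 CPM in macro-metastatic cycling barcodes, and its part in the falling genes was not tested.

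Fewer genes were called at the pre-metastatic stage. The edgeR test called 9 genes higher (0.152%) and 9 lower (0.152%) of 5935, with 1 and 0 called without control 2 and control 1, 0 without pre-metastatic 1 and 10 without pre-metastatic 2, and 95 and 94 without macro-metastatic 1 and macro-metastatic 2. Over all 886 members 1 of 6860 was called (0.0146%; 27 without macro-metastatic 1 and 35 without macro-metastatic 2), Il2rb, a lymphocyte receptor chain, against 580 at an unadjusted p under 0.05, and DESeq2 called 40. Of the 19 NF-kB genes called at the later stage, Il1b alone was called. Its difference of 1.96 ± 0.34 (adjusted p = 0.04, edgeR) stood beside 0.96 in the other Kupffer-rich barcodes. The tested difference between states was 1.08 (adjusted p = 0.014, edgeR). In that test 1 of the 22 genes of the list was called higher and 1 lower, with a median of -0.03. Cxcl13, a B cell-attracting chemokine, stood at 104, 33.9, 493, 383, 174 and 245 CPM and rose by 2.55, highest in the pre-metastatic libraries. Ccl7, a monocyte chemokine, rose by 2.12, Csf2rb, a subunit of the GM-CSF and IL-3 receptors, by 1.96, Marco by 1.55 and Cd14, the endotoxin co-receptor, by 1.44. Marco stood at 0 to 2.34 CPM in the B cells of these 4 libraries. Of 20 mitosis and 28 spindle genes 0 were called by edgeR at this stage (medians -0.59 and -0.43). The genes called lower include Ccl5, Fabp4, Igfbp4, Igfbp7 and Alb. Igfbp7 and Alb stood higher in control B cells (584 and 605, and 942 and 349 CPM) than in control cycling barcodes (372 and 493, and 368 and 155 CPM), and the part of free RNA in these calls was not tested.

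Against the pre-metastatic libraries, the macro-metastatic cycling barcodes had 597 of 5935 genes called (10.1%), 167 without pre-metastatic 1 and 335 without pre-metastatic 2. Among them were 17 of 21 NF-kB genes and 9 of 17 glycolysis and hypoxia genes, all higher. Of the replication list 4 of 30 were higher, namely E2f1, Lig1, Mcm6 and Tk1, and 0 lower. Of the mitosis list 1 was higher and 1 lower, Cdca8 and Ccnb2. Cct7, Lamtor2 and Snrpd2, of protein folding, lysosomal signalling and splicing, were among the largest rises. In B cells Cct7 also went up, from 9.36 and 10.6 to 80.1 and 54.9 CPM. Over all 886 members 557 of 6860 were called (8.12%), 0 without pre-metastatic 1, 3 without pre-metastatic 2, 129 without control 1, 131 without control 2 and 914 without macro-metastatic 1.

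The change in cycling barcodes differed from the change in other Kupffer-rich barcodes for few genes. For macro-metastatic against control 7 of 10601 genes had a higher signed change in cycling barcodes (0.066%) and 24 a lower one (0.226%). For pre-metastatic against control it was 4 (0.0377%) and 18 (0.17%). Leaving out 1 library at a time gave 44 to 104 and 12 to 72 calls in all. Over all 886 members it was 4 of 12653 (0.0316%) and 0 (0.0%, 608 at an unadjusted p under 0.05, with 1 called by DESeq2). Cd14 stood at 221, 237, 659, 660.0, 1729 and 1459.8 CPM in cycling and at 589, 568, 905, 894, 1981 and 2138 CPM in other barcodes, and its log2 change was 0.96 larger in cycling barcodes (SE 0.19, adjusted p = 0.014, edgeR). Hmgb2, a chromatin protein abundant in dividing cells, went from 1521 and 1156 to 711 and 748 CPM in cycling barcodes and from 148 and 120.1 to 181 and 168 CPM in the others, a difference of -1.25 (adjusted p = 6.7e-05, edgeR). In the mitosis list 3 of 23 genes had a lower change in cycling barcodes (median -1.42) and in the spindle list 2 of 31 (median -1.15). The 5 cycling rule genes, given as description only, were all below 0 in this difference (median -1.98, 2 called lower). With at least 10 rule UMIs these were 0 of 24 mitosis genes, and 2 spindle genes higher and 1 lower of 31 (edgeR).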

How the data were processed

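UMI counts per gene and barcode, as the authors deposited them, were read for 6 libraries with 31253 features each. Per the submitters' processing notes, CASAVA 1.8, UMI-tools and mm10 were used; the aligner is not given in the sources used here. Members and gene lists were chosen with earlier results of these data known, and the 0.5% line and the added settings after seeing the data. Levels are CPM. Counts were summed per library and state and tested with the edgeR 4.0.16 quasi-likelihood test (R 4.3.3; TMM, filterByExpr, 3 groups in 1 fit, Benjamini-Hochberg adjustment); changes in cycling minus other barcodes were tested as interactions. DESeq2 1.42.0 was an alternative. Ratios within libraries used a pseudocount of 10 CPM. Doublets were predicted with Scrublet in scanpy 1.11.5 (threshold 0.25, expected 6%) and kept, with an alternative without them. Genes named outside the lists were the up to 10 called genes with the largest rise or fall. They had a mean log2 CPM of at least 5 and non-overlapping libraries. List members were named by smallest p or highest level, and some further members were added outside these rules. Tests were checked on simulated counts. Promoter windows were RefSeq's, matched by gene symbol.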

Additional observations from a re-analysis of the deposited data

Results flagged for a closer look

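Each value here is a log2 change in cycling minus the change in other barcodes that passed the edgeR interaction test of that difference. Over all 886 members, macro-metastatic against control, the differences were 3.07 for Cd63, -1.95 for Ccr2 and -3.34 for Lmnb1. Of these 3 calls 0 held without control 2, without pre-metastatic 1 or without pre-metastatic 2, 1 held without control 1, and 1 held in Kupffer-rich barcodes. Of the 778 macro-metastatic members 445 were Kupffer-poor.

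Among Kupffer-rich barcodes, macro-metastatic against control, cycling barcodes had the larger change for Cd14 (0.96), Emilin2 (0.90) and Lyz2 (0.81). The change was lower for Cks2 (-0.94), Igfbp7 (-1.15), Hmgb2 (-1.25), Pttg1 (-1.56), Cenpa (-1.60), Dennd5b (-2.07), Pck1 (-2.42) and Ckap2l (-2.80). Cks2, Hmgb2, Pttg1, Cenpa and Ckap2l are genes of division. Of 12 calls named from this test, these among them, 4 held at 10 or more rule UMIs and 7 at 5 or more. With no library term and the replicate block 0 held. The calls thus moved with the rule UMI threshold, and the reason was not tested.

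Among Kupffer-rich barcodes, pre-metastatic against control, the difference was 1.08 for Il1b and 0.84 for Tcf7l2. It was -1.37 for Igfbp7, -3.74 for Wfdc21, -3.83 for Arg1 and -4.16 for Pck1. Of 8 calls named from this test, these among them, 4 held at 10 or more rule UMIs and 3 at 5 or more. With no library term and the replicate block 0 held. Arg1 and Pck1 are abundant in hepatocytes. The hepatocyte list had 9 of 12 genes below 0 in this difference (median -1.12), with 1 called lower. Igfbp7 stood at 584 and 605 CPM in control B cells. The part of free RNA in these genes was not tested.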

How the results depend on the processing

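The pre-metastatic share stayed below control in every setting run, but the macro-metastatic excess did not hold in all. Log2 ratios of shares, macro-metastatic then pre-metastatic to control (by the rule 0.72 and -0.91), were 1.06 and -0.53 at 2 rule UMIs, 0.38 and -1.28 at 5, 0.34 and -1.48 at 10, 0.19 and -1.32 at 0.1% of UMIs, 0.28 and -1.23 (3 UMIs) or 0.27 and -1.40 (2 UMIs) after thinning, 0.26 and -1.29 under 10% mitochondrial UMIs, and 0.93 and -0.71 without barcodes holding non-neutrophil markers of other types. Macro-metastatic was 0.26 in Kupffer-rich barcodes, 0.26 at the 0.25% line and 0.32 without doublets; at the 1% line the ratios were 0.81 and -0.63. Kupffer-rich barcodes without the endothelial limit gave 0.45 and -0.76. The sign turned for macro-metastatic in Kupffer-rich barcodes with 10 rule UMIs (-0.42 and -1.67) and thinned to 3 (-0.46 and -1.47) or 2 rule UMIs (-0.54 and -1.62), as did the trend of 0.36 (-0.24, -0.24 and -0.29). Leaving out 1 library gave -0.12 to 0.56 for the trend, with -0.12 in Kupffer-rich barcodes without macro-metastatic 2. The macro-metastatic ratio in Kupffer-rich barcodes was then 0.44 without macro-metastatic 1 and 0.046 without macro-metastatic 2, and 0.75 at most by the rule. The pre-metastatic ratio was -1.09 without pre-metastatic 1 and -0.75 without pre-metastatic 2, and -1.38 and -0.65 in Kupffer-rich barcodes.

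Genes called over all members, macro-metastatic against control, were 520, with 1238 unfiltered and 0 to 745 leaving out 1 library. Pre-metastatic against control they were 1, with 40 by DESeq2, 173 unfiltered, 9 with the replicate block, 18 Kupffer-rich, 0 at 5 or 10 rule UMIs, without doublets or without other markers (with or without neutrophil ones), and 0 to 35 leaving out 1. Macro-metastatic against pre-metastatic 557 became 1288 unfiltered, 370 at 10 rule UMIs and 0 to 914. Differences between states, macro-metastatic (4), became 43 by DESeq2, 76 unfiltered, 0 with no library term and the replicate block together, 7 without doublets, 21 without other markers, 2 at 10 rule UMIs, 31 Kupffer-rich and 0 to 188. Pre-metastatic (0) they became 1, 55 unfiltered, 15 and 4 without other markers with and without neutrophil ones, 22 Kupffer-rich and 0 to 60.

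In Kupffer-rich barcodes 693 became 1197 unfiltered, 334 at 10 rule UMIs, 443 at the 1% line and 230 to 717; 18 became 51 by DESeq2, 174 unfiltered, 9 at 5 and 0 at 10 rule UMIs, 11 without non-neutrophil markers, 1 at the 1% line and 0 to 95; 597 became 352 by DESeq2, 1025 unfiltered, 345 at 10 rule UMIs and 167 to 595. Differences between states of 31 became 92 unfiltered, 0 with no library term and the replicate block, 77 and 92 without other markers, 18 at 10 rule UMIs and 44 to 104; of 22, 12 by DESeq2, 57 unfiltered, 0 with no library term and the block, 6 at 5 rule UMIs, 12 without doublets, 40 and 58 without other markers, 3 and 8 at the 0.25% and 1% lines and 12 to 72. The numbers did not pair the libraries (same-number r -0.00425 to 0.129). Tbc1d4 turned to 0.16 at the 1% line and Kazn to 0.10 at 10 rule UMIs. The causes were not tested. Control groups of 34 Kupffer-rich barcodes limit the depth.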
